A study of Rattus norvegicus with 8 samples.

Results

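Interferon signalling in neonatal rat ventricular cardiomyocytes (NRVCMs) was examined through 10 genes: the receptor chains Ifnar1, Ifnar2, Ifngr1 and Ifngr2, the interferon regulatory factors Irf1, Irf2, Irf3, Irf7 and Irf9, and the tyrosine phosphatase Ptpn2. They were picked by gene name from a table of transcript abundances, in which the transcripts of a gene were summed. The 10 genes belong to 12784 genes in that table, and all 10 were among the 12567 genes that reached a mean of 0.5 FPKM and entered the test. FPKM (fragments per kilobase of transcript, scaled to the mapped fragments of the library) takes transcript length into account, so that levels can be compared between genes, but its total still differs between libraries. The HectD3 group held 4 libraries of NRVCMs transduced with an adenovirus that carries HectD3, an E3 ubiquitin ligase. The LacZ group held 4 libraries of NRVCMs transduced with a virus that carries LacZ, the gene of a bacterial beta-galactosidase that served as the control. The vector of the study's viruses drives its insert from the CMV promoter, which is active in most cell types, and every library carries a virus, so untransduced cells were not compared. The cells were a primary culture from the hearts of newborn rats, kept for 24 h before transduction and harvested 72 h after it. The strain is given as Wistar in the methods but as Sprague Dawley in the reporting summary. The labels call the 4 libraries of a group biological replicates but do not tie them to separate isolations, so every p-value measures the spread between these libraries only.

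Type I interferons bind a receptor of the chains Ifnar1 and Ifnar2, and interferon gamma binds a receptor of Ifngr1 and Ifngr2. The chains hold Janus kinases, which phosphorylate STAT proteins, and for type I interferons these join Irf9, the DNA-binding partner that directs the complex to interferon-stimulated genes. Irf3 is present before any infection and is activated by kinases downstream of viral nucleic acid sensors, whereas Irf7 is itself an interferon-stimulated gene that amplifies the type I response. Irf1 is induced by interferon gamma and activates antigen presentation genes, Irf2 competes with it for the same DNA element, and Ptpn2 removes phosphate from Janus kinases and STAT proteins. In the heart the pathway is best known from viral myocarditis.

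All 5 interferon regulatory factors had a lower mean in HectD3 than in LacZ NRVCMs, whereas the receptor chains and Ptpn2 had log2 differences between -0.14 and 0.17. The 2 factors with the smallest p were Irf7, at 209 ± 41.7 FPKM in HectD3 NRVCMs, against 285 ± 29.7 FPKM in LacZ NRVCMs, and Irf9, at 45.4 ± 3.68 FPKM in HectD3 NRVCMs, against 55.6 ± 7.28 FPKM in LacZ NRVCMs (SD, n = 4 each). Across the 10 genes the median log2 difference was -0.18, against -0.023 over all genes tested. None of the 10 genes passed an adjusted p of 0.05 in limma with Benjamini-Hochberg adjustment over all genes tested. Their adjusted p ran between 0.567 and 0.988, and only 1 gene of the 12567, or 0.00796%, passed, the overexpressed Hectd3. At an unadjusted p under 0.05, 2 of the 10 genes were lower, Irf7 and Irf9, and 0 were higher, where 4.28% of all genes tested were lower and 2.87% were higher. Irf9 was the 1 gene of the 10 with every HectD3 library below every LacZ library, a pattern that 2.81% of all genes tested showed, and 0 of the 10 had every HectD3 library above every LacZ library, which 2.44% of all genes showed. With TPM, values rescaled to a common total in each library, the genes at an unadjusted p under 0.05 were 734 lower and 172 higher, against 538 lower and 361 higher on FPKM. The same 2 of the 10 genes were lower in both.

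**Figure D1:**
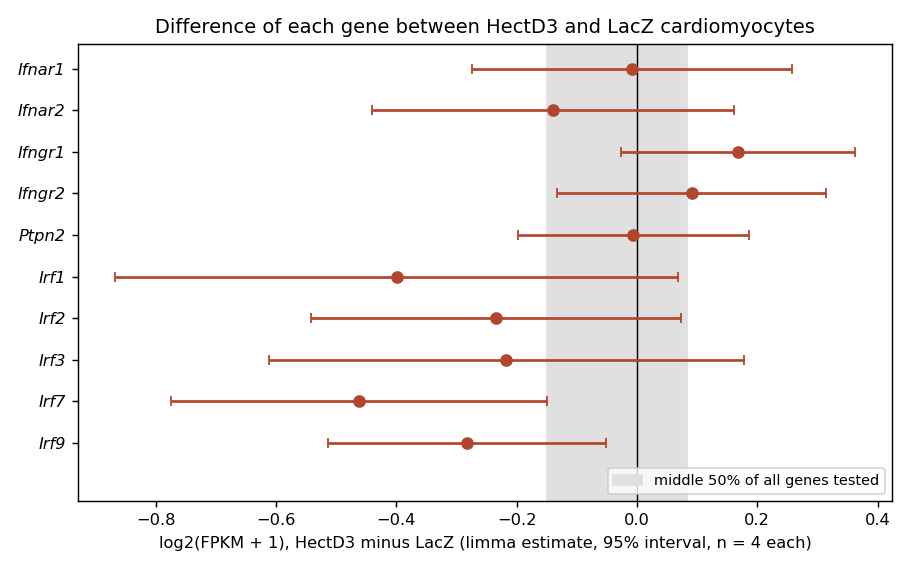
Log2 difference in FPKM + 1 (HectD3 minus LacZ, limma estimate with its 95% interval, 4 libraries each) of the 4 receptor chains, Ptpn2 and the 5 interferon regulatory factors. The grey band covers the middle 50% of all genes tested, from -0.15 to 0.084, and only the intervals of Irf7 and Irf9 lie wholly below 0.

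Libraries of the same group also differed from each other, and the cause was not tested. The overexpressed gene Hectd3 was at 161 to 915 FPKM in the HectD3 libraries and at 6.18 to 7.89 FPKM in the LacZ libraries (two-sided exact permutation test over 70 assignments, p = 0.0286, the smallest value possible with groups of 4). Its 161 FPKM in HectD3 4 was the lowest of that group, and viral and endogenous Hectd3 RNA cannot be told apart. On the first principal component of all genes, with 58.4% of the variance, HectD3 4, LacZ 1 and LacZ 2 lay at -13.4, -40.8 and -27.1 and the other 5 libraries between 9.01 and 18.8. The 3 genes chosen, with earlier results known, as marks of this separation, Nppb, Acta1 and Hadh, split the libraries in the same way. Nppb, a natriuretic peptide, was at 342 FPKM in HectD3 4, at 73.9 FPKM in LacZ 1 and at 147 FPKM in LacZ 2, but at 849 FPKM or more in the other 5. Acta1, skeletal muscle actin, was at 118 FPKM in HectD3 4, at 113 FPKM in LacZ 1 and at 69.2 FPKM in LacZ 2, and Hadh, a mitochondrial enzyme of fatty acid oxidation, was highest in the same 3 libraries. All 12 cardiomyocyte markers on the list were present, and 7 of the 12 had a negative log2 difference (median over the list -0.037). The 12 markers summed to 21532.9 to 28321.5 FPKM in HectD3 NRVCMs, against 19623.3 to 28885.8 FPKM in LacZ NRVCMs, so the groups overlapped. At an unadjusted p under 0.05 in limma, 2 of the 12 were lower, Myh6 and Myh7, and 0 were higher. Over all genes tested, 4.28% were lower and 2.87% were higher at that p. The myosin heavy chains Myh6, at 198 ± 3.99 FPKM in HectD3 NRVCMs, against 224 ± 13.4 FPKM in LacZ NRVCMs, and Myh7, at 1566 ± 47.5 FPKM in HectD3 NRVCMs, against 1795 ± 159 FPKM in LacZ NRVCMs (SD, n = 4 each), had every HectD3 library below every LacZ library (unadjusted p = 0.0236 and 0.0426 from limma). The 14 measured macrophage and leukocyte markers summed to 489 to 622 FPKM in HectD3 NRVCMs, against 445 to 584 FPKM in LacZ NRVCMs, with 0 of the 14 at 0 in all libraries. Of these 14, 12 had a positive log2 difference (median over the list 0.13), and 1 of them, Adgre1, was higher at an unadjusted p under 0.05, at 12.7 ± 1.08 FPKM in HectD3 NRVCMs, against 10.2 ± 1.38 FPKM in LacZ NRVCMs (unadjusted p = 0.0312 from limma). The fibroblast, smooth muscle and endothelial lists also overlapped between the groups in their summed levels. A negative log2 difference was seen for 3 of 8 fibroblast, 4 of 7 smooth muscle and 3 of 7 endothelial markers tested. The medians of these lists were 0.081, -0.070 and 0.10. Every HectD3 library was above every LacZ library for the endothelial marker Emcn (log2 difference 0.31). For the smooth muscle marker Myh11 every HectD3 library was below every LacZ library (log2 difference -0.39). The part of these cell types in the results was not tested. Fewer cells of a type and less RNA per cell cannot be told apart in these bulk libraries.

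**Figure D2:**
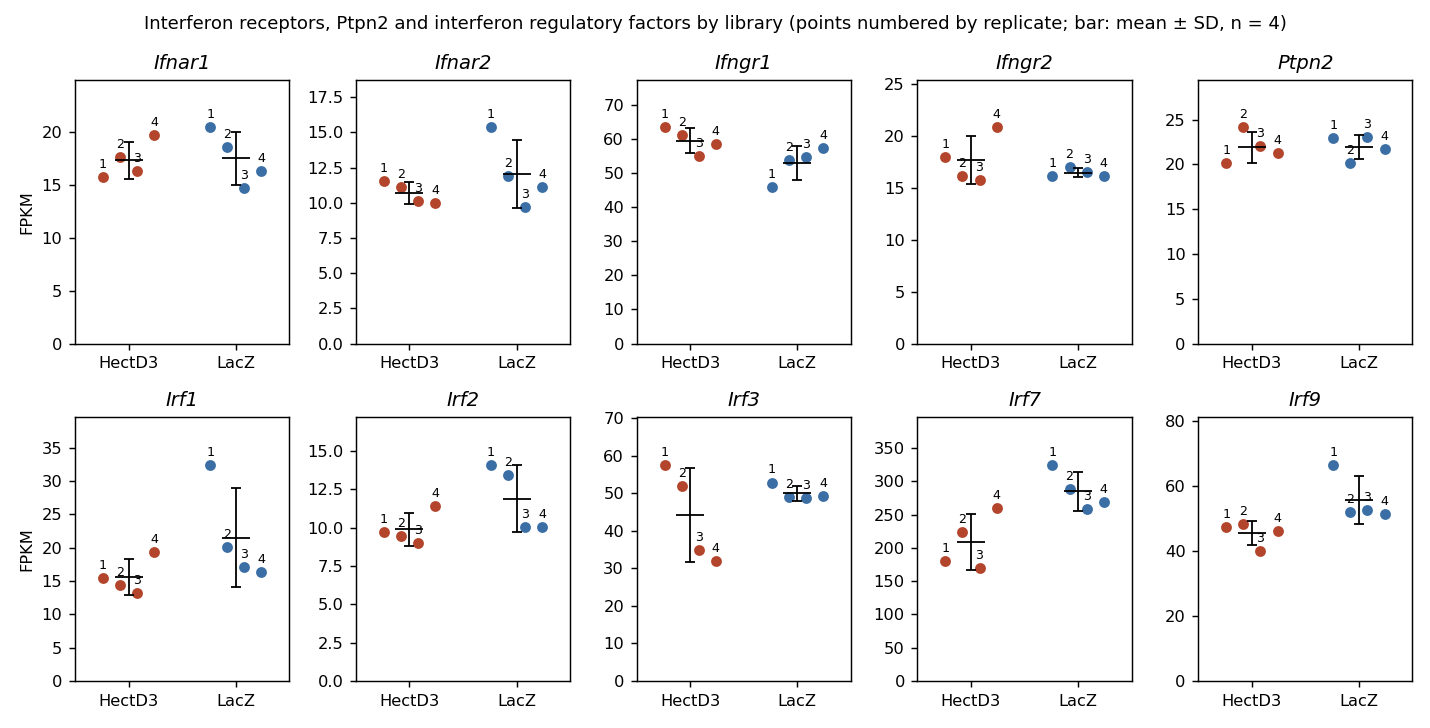
FPKM of each of the 10 genes in every library, HectD3 left and LacZ right, points numbered by replicate, with the mean and SD of 4 libraries as a bar. Only for Irf9 do the groups not overlap, and LacZ 1 is the highest library for 6 of the 10 genes.

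The receptor chains gave no difference past the test. Ifnar1, the chain that holds the kinase Tyk2, was at 15.8, 17.6, 16.3 and 19.7 FPKM in the HectD3 libraries and at 20.4, 18.6, 14.7 and 16.3 FPKM in the LacZ libraries. The groups overlapped almost completely, with HectD3 4 and LacZ 1 as the highest of each. Its log2 difference of -0.0086 had a 95% interval between -0.27 and 0.26 (adjusted p = 0.988 from limma), and its sign turned with the setting. Ifnar2, the chain with the higher affinity for type I interferons, was at 11.6, 11.1, 10.1 and 9.99 FPKM in HectD3 NRVCMs, against 15.4, 11.9, 9.70 and 11.1 FPKM in LacZ NRVCMs. LacZ 1 and LacZ 2 lay above all HectD3 libraries, LacZ 2 by a small margin, while LacZ 3 was the lowest of all 8. The log2 difference of Ifnar2 was -0.14 (95% interval between -0.44 and 0.16, adjusted p = 0.771 from limma), and it was -0.024 without LacZ 1 and -0.23 without LacZ 3.

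Ifngr1, the chain that binds interferon gamma directly, was the most abundant receptor chain and the 1 with the largest positive difference. Its values were 63.4, 61.3, 54.9 and 58.5 FPKM in HectD3 NRVCMs, against 46.0, 53.7, 54.6 and 57.5 FPKM in LacZ NRVCMs. The HectD3 libraries lay higher, and the groups overlapped through HectD3 3, which was below LacZ 4. The log2 difference was 0.17 (95% interval between -0.027 and 0.36, unadjusted p = 0.0828, adjusted p = 0.719 from limma). Without LacZ 1, the lowest library, the log2 difference was 0.10 (unadjusted p = 0.216 from limma), and among HectD3 1 to 3 against LacZ 3 and LacZ 4, the libraries that lie together on the first principal component, it was 0.091, a comparison added after the libraries were seen. Ifngr2, the signalling chain of the same receptor, was at 17.9, 16.2, 15.8 and 20.8 FPKM in HectD3 NRVCMs, against 16.1, 17.0, 16.5 and 16.1 FPKM in LacZ NRVCMs. The LacZ libraries lay close together inside the wider range of the HectD3 libraries. Its log2 difference was 0.091 (95% interval between -0.13 and 0.31, adjusted p = 0.799 from limma), and it was 0.014 without HectD3 4, the highest library, and 0.14 without HectD3 3.

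In the deposited table Ifnar2, Ifnar1 and Ifngr2 lie in 1 cluster on chromosome 11, on the forward strand, from 31539016, where Ifnar2 starts, to 31712611, where Ifngr2 ends, and Ifngr1 lies on chromosome 1 from 15062432 to 15080907. The sources used here do not name the genome build of these coordinates. Il10rb, the shared chain of the interferon lambda and interleukin 10 receptors, lies in the cluster between Ifnar2 and Ifnar1. It was at 15.8, 16.5, 15.6 and 23.6 FPKM in HectD3 NRVCMs, against 27.5, 21.1, 18.2 and 15.2 FPKM in LacZ NRVCMs, with a log2 difference of -0.18 (adjusted p = 0.792 from limma). The highest libraries of Il10rb were LacZ 1, HectD3 4 and LacZ 2, the same 3 that stand apart on the first principal component. Within a library, Ifnar1 was at 1.63 ± 0.251 times the FPKM of Ifnar2 with HectD3 and at 1.47 ± 0.1003 times with LacZ (SD, n = 4 each). Ifngr1 was at 3.41 ± 0.418 times the FPKM of Ifngr2 with HectD3 and at 3.22 ± 0.298 times with LacZ. Both ratios overlapped between the groups.

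Ifnar1 and Irf2 each had 2 transcripts in the table, and the other 8 genes had 1. Of Ifnar1, the transcript Ifnar1-201 carried 66.9%, 74.6%, 87.8% and 88.4% of the FPKM in the HectD3 libraries and 90.6%, 63.3%, 88.2% and 86.0% in the LacZ libraries. The minor transcript Ifnar1-202 was at 5.21, 4.46, 1.99 and 2.29 FPKM in HectD3 NRVCMs, against 1.93, 6.82, 1.74 and 2.29 FPKM in LacZ NRVCMs. Thus 3 libraries, HectD3 1, HectD3 2 and LacZ 2, held more of Ifnar1-202 than the other 5, and this split followed neither the virus nor the first principal component. Both transcripts share their start and end in the table, and the FPKM of each rests on how the authors' tools divided shared reads between them. Tested on its own, neither transcript passed the test (adjusted p = 0.953 for Ifnar1-201 and 0.912 for Ifnar1-202 from limma over all transcripts). Irf2-202 carried 82.6% to 89.2% of the Irf2 FPKM in HectD3 NRVCMs, against 81.4% to 85.8% with LacZ.

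**Figure D3:**
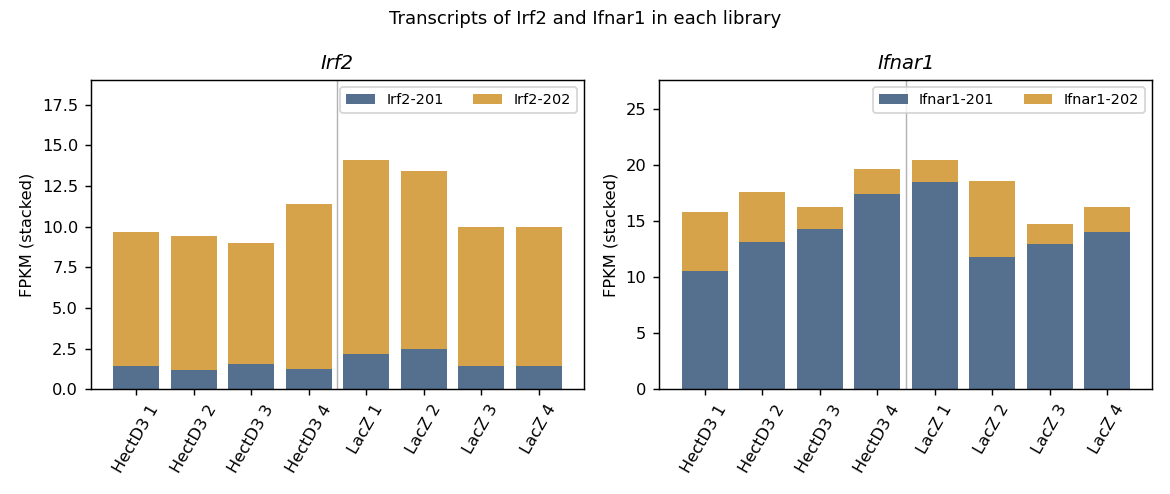
FPKM of the transcripts of Irf2 and Ifnar1 in every library, stacked, HectD3 libraries left of LacZ libraries. Ifnar1-202 is higher in HectD3 1, HectD3 2 and LacZ 2 (4.46 to 6.82 FPKM) than in the other 5 libraries (1.74 to 2.29 FPKM).

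Ptpn2 was the gene of the 10 with the smallest difference. It lies on the reverse strand of chromosome 18 from 63415306 to 63488027 in the table. It was at 20.2, 24.1, 22.0 and 21.3 FPKM in HectD3 NRVCMs, against 23.0, 20.2, 23.0 and 21.7 FPKM in LacZ NRVCMs. The 2 groups covered nearly the same range. The log2 difference was -0.0062 (95% interval between -0.20 and 0.19, adjusted p = 0.988 from limma). Among 15 other negative regulators of interferon signalling, 3 were lower at an unadjusted p under 0.05 and 0 were higher, and their median log2 difference was -0.14. The share of all genes tested that was lower at that p was 4.28%. Usp18, which removes Isg15 from proteins and blocks the Ifnar2 chain, was at 77.5, 101, 78.0 and 114 FPKM in HectD3 NRVCMs, against 169, 134, 126 and 119.6 FPKM in LacZ NRVCMs. All 4 HectD3 libraries were below the lowest LacZ library, LacZ 4, at a log2 difference of -0.57 (unadjusted p = 0.00437, adjusted p = 0.509 from limma). Socs2, a suppressor of cytokine signalling known mainly from the growth hormone pathway, was at 22.9 ± 5.88 FPKM in HectD3 NRVCMs, against 37.6 ± 10.5 FPKM in LacZ NRVCMs, at a log2 difference of -0.69 (adjusted p = 0.596 from limma). Socs2 and the related suppressor Cish, the other gene of the 3, also had every HectD3 library below every LacZ library.

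The receptor kinases and partners were 6 genes, of which 1 was lower at an unadjusted p under 0.05 and 0 were higher, with a median log2 difference of -0.16. Stat2, the STAT protein that binds Irf9, was at 30.8, 40.0, 27.9 and 47.0 FPKM in HectD3 NRVCMs, against 84.5, 63.5, 45.4 and 43.7 FPKM in LacZ NRVCMs. HectD3 4 lay above LacZ 3 and LacZ 4, and LacZ 1 and LacZ 2 lay above the rest. Its log2 difference of -0.67 had an unadjusted p of 0.0173 and an adjusted p of 0.662 in limma. Jak1, the kinase that both receptors use, was at 49.4 ± 2.14 FPKM in HectD3 NRVCMs, against 49.6 ± 2.13 FPKM in LacZ NRVCMs, and Jak2 and Tyk2 differed by 0.056 and -0.17 on the log2 scale. Of 12 interferon ligand names, 0 matched a gene of the table, and the ligands were not analysed here. Among 15 other cytokine receptors, 0 were lower at such a p and 1 was higher. Over all genes tested, 4.28% were lower and 2.87% were higher at that p. The higher receptor was Il11ra1, a receptor of interleukin 11, at 51.9 ± 4.20 FPKM in HectD3 NRVCMs, against 43.5 ± 2.57 FPKM in LacZ NRVCMs (SD, n = 4 each, adjusted p = 0.625 from limma).

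Irf7 was the most abundant of the 10 genes, above 97.1% of all genes tested by its mean, and had the smallest p of the 10. In the table it is ENSRNOG00000017414, on the reverse strand of chromosome 1 from 214248837 to 214252456. Its values were 181, 224, 169.7 and 260.3 FPKM in HectD3 NRVCMs, against 325, 289, 258 and 268 FPKM in LacZ NRVCMs. HectD3 1, HectD3 2 and HectD3 3 lay below every LacZ library, and the groups overlapped only because HectD3 4 exceeded LacZ 3 by a small margin. The mean with HectD3 was 0.733 times the mean with LacZ, and the log2 difference was -0.46 (SE 0.14, 95% interval between -0.78 and -0.15, unadjusted p = 0.00850, adjusted p = 0.567 from limma). With TPM, with median-ratio scaling or with quantile normalization, every HectD3 library was below every LacZ library for Irf7 as for Irf9. The share of all genes with this pattern under these scalings is not given here. With TPM the median log2 difference over all genes tested was -0.070, against -0.023 on FPKM. HectD3 4, the highest HectD3 library for Irf7, was also the HectD3 library with the least Hectd3 and the 1 set apart on the first principal component; the part of either in the result was not tested. A comparison added after the libraries were seen set HectD3 1, HectD3 2 and HectD3 3 against LacZ 3 and LacZ 4. It leaves out HectD3 4, the library through which the groups overlapped. The log2 difference of Irf7 in it was -0.47 (unadjusted p = 0.00240, adjusted p = 0.308 from limma).

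Irf3, the factor that acts upstream of Irf7, split the HectD3 libraries. The gene lies on the forward strand of chromosome 1 from 100992405 to 100997198 in the table. It was at 57.6 and 52.0 FPKM in HectD3 1 and HectD3 2 but at 34.9 and 32.0 FPKM in HectD3 3 and HectD3 4, against 52.8, 49.0, 48.7 and 49.2 FPKM in LacZ 1 to LacZ 4. The LacZ libraries lay in the gap between both pairs of HectD3 libraries, except that LacZ 1 was above HectD3 2. The log2 difference was -0.22 with a wide 95% interval, between -0.61 and 0.18 (adjusted p = 0.744 from limma). It depended on single HectD3 libraries: it was -0.36 without HectD3 1 (unadjusted p = 0.0507 from limma), -0.12 without HectD3 3 and -0.081 without HectD3 4, and it was -0.054 among HectD3 1 to 3 against LacZ 3 and LacZ 4. The split of Irf3 followed neither the level of Hectd3, which was 590 FPKM in HectD3 3 and 161 FPKM in HectD3 4, nor the first principal component. The first 865 bases of the Irf3 locus overlap the oppositely directed Bcl2l12 in the table, and Irf7 overlaps the end of Phrf1 by at most 65 bases. The library kit keeps the strand, but the sources used here do not say whether the authors' counting used it. The ratio of Irf7 to Irf3 within a library was 3.14, 4.31, 4.86 and 8.13 with HectD3 and between 5.29 and 6.15 with LacZ, so that HectD3 libraries lay on both sides of all LacZ libraries.

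Around Irf3 and Irf7, 16 genes that sense viral nucleic acids or relay the signal were measured. Of these, 4 were lower at an unadjusted p under 0.05, where 4.28% of all genes tested were lower, and 0 were higher. The median log2 difference was -0.095. The RNA sensors were among the lower ones. Ddx58, which encodes RIG-I, was at 22.3, 29.3, 26.4 and 25.5 FPKM in HectD3 NRVCMs, against 56.7, 45.1, 38.8 and 38.3 FPKM in LacZ NRVCMs, with no overlap and a log2 difference of -0.76 (unadjusted p = 0.000311, adjusted p = 0.269 from limma). Ifih1, which encodes MDA5, was at 15.1 ± 2.33 FPKM in HectD3 NRVCMs, against 21.4 ± 1.48 FPKM in LacZ NRVCMs (SD, n = 4 each), also with no overlap. Both sensors are interferon-stimulated genes themselves. The kinase Tbk1, which phosphorylates Irf3 and Irf7, was at 15.3 ± 1.06 FPKM in HectD3 NRVCMs, against 15.9 ± 1.61 FPKM in LacZ NRVCMs, and the adaptors Mavs and Myd88 had log2 differences of -0.39 and 0.031, neither past an unadjusted p of 0.05.

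Irf9 was the 1 gene of the 10 whose groups did not overlap. In the table it is ENSRNOG00000019478, on the forward strand of chromosome 15 from 34282936 to 34288138. It was at 47.2, 48.2, 40.0 and 46.0 FPKM in HectD3 NRVCMs, against 66.5, 52.0, 52.5 and 51.4 FPKM in LacZ NRVCMs. LacZ 1 stood far above the other LacZ libraries, which lay within 1.09 FPKM of each other, and the lowest of them was 3.20 FPKM above the highest HectD3 library. The log2 difference was -0.28 (SE 0.10, 95% interval between -0.51 and -0.051, unadjusted p = 0.0219, adjusted p = 0.671 from limma), and the mean with HectD3 was 0.816 times the mean with LacZ. Without LacZ 1 the log2 difference was -0.20 (unadjusted p = 0.0475 from limma), and without HectD3 3, the lowest library, it was -0.23 with an unadjusted p of 0.0654. Within the libraries that lie together on the first principal component it was -0.20 (unadjusted p = 0.0574 from limma).

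Irf1, the activator, and Irf2, its competitor, had lower means with HectD3 but did not pass an unadjusted p of 0.05. In the table Irf1 lies on chromosome 10 from 39109522 to 39116531 (forward strand) and Irf2 on chromosome 16 from 48582026 to 48732932 (reverse strand). Irf1 was at 15.4, 14.4, 13.2 and 19.3 FPKM in HectD3 NRVCMs, against 32.4, 20.1, 17.1 and 16.3 FPKM in LacZ NRVCMs. LacZ 1 lay far above all other libraries, and HectD3 4 lay above LacZ 3 and LacZ 4. The log2 difference was -0.40 (95% interval between -0.87 and 0.068, unadjusted p = 0.0855, adjusted p = 0.721 from limma), and the unadjusted p was 0.0493 without HectD3 4 and 0.0422 without LacZ 4. Without LacZ 1 the log2 difference of Irf1 was -0.19 (unadjusted p = 0.202 from limma), and among HectD3 1 to 3 against LacZ 3 and LacZ 4 it was -0.21 (unadjusted p = 0.0689 from limma). Irf2 was at 9.69, 9.45, 8.98 and 11.4 FPKM in HectD3 NRVCMs, against 14.1, 13.5, 10.0 and 10.0 FPKM in LacZ NRVCMs, at a log2 difference of -0.23 (95% interval between -0.54 and 0.073, adjusted p = 0.724 from limma), which was -0.15 without LacZ 1 and -0.087 among HectD3 1 to 3 against LacZ 3 and LacZ 4. Its highest libraries were LacZ 1, LacZ 2 and HectD3 4, the 3 that stand apart on the first principal component. The ratio of Irf1 to Irf2 was 1.57 ± 0.0977 with HectD3 and 1.78 ± 0.355 with LacZ (SD, n = 4 each), and 1.47 to 1.70 in every library except LacZ 3 and LacZ 1, which were at 1.71 and 2.30.

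The other interferon regulatory factors and partners of Irf2 were 6 measured genes. At an unadjusted p under 0.05, 0 were higher and 1 was lower, where 4.28% of all genes tested were lower. That gene was Irf2bp2, a corepressor that binds Irf2, at 17.9, 11.2, 15.4 and 16.4 FPKM in HectD3 NRVCMs, against 26.3, 18.7, 17.8 and 20.1 FPKM in LacZ NRVCMs. Irf5 and Irf8, factors best known from blood cells, had means of at most 3.53 FPKM in either group and log2 differences of 0.042 and -0.028.

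Promoter sequences of 9 of the 10 genes were found in the RefSeq tables (assembly GRCr8), each from 250 bases before to 50 bases after the start of the gene; that of Irf2 was not used here. Both strands were searched for the core of the interferon-stimulated response element, GAAANNGAA, to which complexes with Irf9 and other factors bind, and for the gamma-activated site, TTCNNNGAA, to which STAT dimers bind. GAAANNGAA was in 1 of the 9 windows, that of Irf7, and in 9.71% of the 33469 windows of all genes. TTCNNNGAA was in 3 of the 9 windows, those of Irf1, Irf9 and Ifnar2, and in 8.87% of all windows. None of the 9 windows held both motifs. A match is a match of letters, and the other 5 windows, those of Irf3, Ifnar1, Ifngr1, Ifngr2 and Ptpn2, do not hold these letters. The windows of the 3 regulatory factors with a match are given 5′ to 3′ on the strand of the gene, in lower case with the matched motif in capitals, because they show where each element lies. In Irf7 (chr1:205799974-205800273, reverse strand) GAAANNGAA lies on the opposite strand, from base -68 to base -60 before the start. In Irf9 (chr15:33065586-33065885, forward strand) TTCNNNGAA lies from base -99 to base -91, and in Irf1 (chr10:38417685-38417984, forward strand) from base -142 to base -134.
Irf7: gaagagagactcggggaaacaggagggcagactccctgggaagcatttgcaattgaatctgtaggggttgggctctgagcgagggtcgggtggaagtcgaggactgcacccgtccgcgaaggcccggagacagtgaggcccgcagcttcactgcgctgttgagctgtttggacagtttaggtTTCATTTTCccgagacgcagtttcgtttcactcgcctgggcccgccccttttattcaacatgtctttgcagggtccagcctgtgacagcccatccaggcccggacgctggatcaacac
Irf9: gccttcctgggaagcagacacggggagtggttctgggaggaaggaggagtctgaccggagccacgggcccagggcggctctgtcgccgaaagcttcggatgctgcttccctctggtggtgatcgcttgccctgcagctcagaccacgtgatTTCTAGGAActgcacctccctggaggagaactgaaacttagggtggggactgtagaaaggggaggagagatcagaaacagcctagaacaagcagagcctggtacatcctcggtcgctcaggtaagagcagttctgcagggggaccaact
Irf1: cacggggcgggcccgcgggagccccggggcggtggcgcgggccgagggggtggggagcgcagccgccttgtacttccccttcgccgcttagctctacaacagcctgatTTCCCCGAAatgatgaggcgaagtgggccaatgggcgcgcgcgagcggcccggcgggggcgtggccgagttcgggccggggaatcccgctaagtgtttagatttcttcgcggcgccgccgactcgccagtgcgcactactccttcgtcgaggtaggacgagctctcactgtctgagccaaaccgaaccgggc

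The known target genes of these factors were then read beside them. Of 27 tested targets of the complex of Irf9 with STAT proteins, 26 were lower at an unadjusted p under 0.05 and 0 were higher, 21 had every HectD3 library below every LacZ library, and the median log2 difference was -0.59, with 0 past an adjusted p of 0.05. Mx1, an antiviral GTPase, was at 30.4 ± 5.21 FPKM in HectD3 NRVCMs, against 62.8 ± 4.51 FPKM in LacZ NRVCMs (SD, n = 4 each), with a log2 difference of -1.03 (adjusted p = 0.0615 from limma). Isg15, the ubiquitin-like modifier, was at 86.8 ± 12.8 FPKM in HectD3 NRVCMs, against 148 ± 13.3 FPKM in LacZ NRVCMs (SD, n = 4 each). The difference of Irf9 itself, at -0.28, was smaller than this median, and that of Irf7, at -0.46, lay closer to it. Of 21 tested targets of Irf1 and interferon gamma, 10 were lower at an unadjusted p under 0.05 and 0 were higher, 7 had no overlap, and the median was -0.27. Over all genes tested, 4.28% were lower at that p and 2.81% had every HectD3 library below every LacZ library. Gbp2, an interferon-induced GTPase, was at 25.1 ± 4.14 FPKM in HectD3 NRVCMs, against 36.0 ± 2.14 FPKM in LacZ NRVCMs, and Tap1, a peptide transporter of antigen presentation, was at 17.0 ± 2.67 FPKM in HectD3 NRVCMs, against 24.9 ± 2.57 FPKM in LacZ NRVCMs (SD, n = 4 each). B2m, the light chain of class I molecules, differed by 0.021 on the log2 scale and Psmb8, a subunit of the immunoproteasome, by 0.53 (unadjusted p = 0.157 from limma). Usp18, the suppressor Socs1 and the receptor chain Il10rb each stand on 2 of the lists described here.

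**Figure D4:**
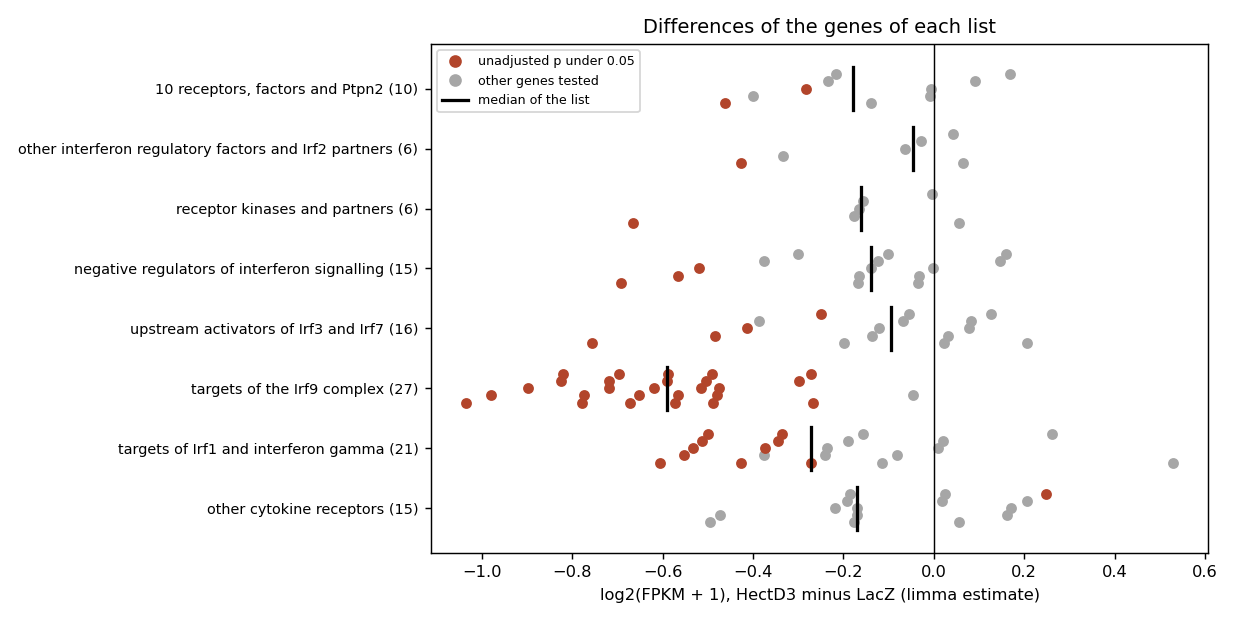
Log2 difference in FPKM + 1 (HectD3 minus LacZ, limma estimate) of the 10 genes and of each tested gene of 7 lists around them, red where the unadjusted p was under 0.05, with the median of each list as a black line. The targets of the Irf9 complex lie furthest to the left, with a median of -0.59, and the 10 genes have a median of -0.18.

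Library by library, Irf7 and the targets of the Irf9 complex took similar positions. The deviation of Irf7 from its mean over the 8 libraries, on the log2 scale, was -0.42, -0.11, -0.51 and 0.11 with HectD3 and 0.43, 0.25, 0.093 and 0.15 with LacZ. The median deviation of the 27 targets was -0.40, -0.17, -0.58 and -0.10 with HectD3 and 0.54, 0.26, 0.20 and 0.20 with LacZ. HectD3 3 was the lowest and LacZ 1 the highest library in both, and HectD3 4 was the HectD3 library nearest to LacZ. The median deviation over all genes was between -0.058 and 0.082 in every library. HectD3 3 was the lowest of the 8 libraries for 5 of the 10 genes, Irf1, Irf2, Irf7, Irf9 and Ifngr2.

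**Figure D5:**
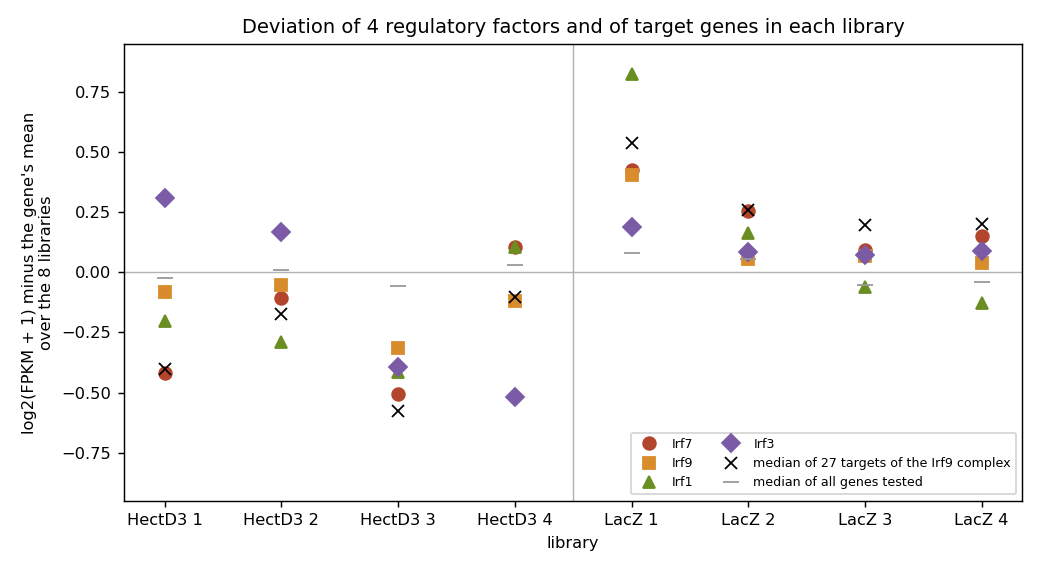
Deviation of log2(FPKM + 1) from the gene's mean over the 8 libraries for Irf7, Irf9, Irf1 and Irf3, with the median deviation of 27 targets of the Irf9 complex and of all genes tested, HectD3 libraries left. Irf7 and the target median are lowest in HectD3 3 (-0.51 and -0.58) and highest in LacZ 1 (0.43 and 0.54), and Irf3 is lowest in HectD3 4 (-0.52).

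The 5 genes whose pattern over the 8 libraries was most like that of Irf7, among 8760 genes that reached a mean of 5 FPKM, were Rtp4 (Pearson r = 0.992), Gbp4 (0.983), Usp18 (0.981), Tram2 (0.979) and Tapbp (0.975). These correlations describe 8 points that share the 2 groups and the separation of the libraries, and no p is given. Rtp4, Gbp4, Usp18 and Tapbp stand on the lists of interferon targets, and Tram2, a gene of collagen synthesis, stands on none of them. Tram2 had a mean of 4.85 FPKM in HectD3 NRVCMs, against 6.83 FPKM in LacZ NRVCMs.

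By mean level, the order with HectD3 was Irf7, Ifngr1, Irf9, Irf3, Ptpn2, Ifngr2, Ifnar1, Irf1, Ifnar2 and Irf2, and with LacZ it was Irf7, Irf9, Ifngr1, Irf3, Ptpn2, Irf1, Ifnar1, Ifngr2, Ifnar2 and Irf2. Irf7 was set apart from its neighbour in both groups, with no overlap of the libraries. Ifngr1 stood above Irf9 in all 4 HectD3 libraries, with no overlap of the ranges, whereas with LacZ Irf9 was above Ifngr1 in 1 of 4 libraries and the ranges overlapped. Irf9 and Irf3 overlapped with HectD3, and Ifngr1 and Irf3 overlapped with LacZ. Ptpn2, Ifngr2, Ifnar1 and Irf1 followed in another order in each group, and neighbours among these 4 overlapped in both. Ifnar2 and Irf2, the lowest of the 10, also overlapped in both groups.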

How the data were processed

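RNA-seq libraries of polyadenylated RNA, 4 per virus, were made with a strand-specific kit. Reads were trimmed by the authors with cutadapt and aligned with HISAT2, and transcripts were quantified with StringTie and Ballgown, which gave the deposited FPKM values. HISAT2 and StringTie are also named in the submitters' processing notes. The genome build and the annotation are not named in the sources used here, nor is any version of these tools. Values below 1 FPKM showed no step worth 1 read (at most 1.85% of at least 1117 such transcripts shared a ratio between libraries). The depth of each library is therefore unknown, and counting error could not be given. No 2 libraries had an identical nonzero value.

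The 15976 transcripts were summed by gene name. The test was limma (version 3.58.1) in R (version 4.3.3), run with its trend option on log2(FPKM + 1) for 12567 genes that reached a mean of 0.5 FPKM. It compared HectD3 with LacZ (two-sided), had the virus as its only term, was adjusted by Benjamini-Hochberg over all of these genes and was tested on simulated data. Every log2 difference is on this scale, which understates differences of low genes. The 10 genes, the gene lists, tests and alternatives were chosen with earlier results of these data known. Beyond the 10, the rule named Hectd3, Nppb, Acta1 and Hadh, up to 2 genes each way per list with the smallest unadjusted p under 0.05 (otherwise the gene with the smallest p), and the 5 genes most like Irf7. Further genes of the lists were picked as examples after their values were seen. RefSeq promoter windows (GRCr8) were searched in Python (version 3.11.15).

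Alternatives changed the pseudocount (0.1, 0.5), the filter (none, or 5 FPKM), the scaling (TPM, median-ratio, quantile), the summing (most abundant transcript only) and the model (limma without trend, robust, with library weights or with the replicate number as a block, and ordinary least squares with a term for library size), or left out each library. Added after seeing the data were a fit with the first principal component as a term and a comparison of HectD3 1 to 3 with LacZ 3 and 4.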

Additional observations from a re-analysis of the deposited data

Results flagged for a closer look

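In 3 of 38 groups of 4 values examined (the 10 genes, the transcripts of Irf2 and Ifnar1, the 4 ratios and Hectd3, in each group of libraries), 1 library lay far from the other 3; chance gives about 1 in 20. Irf9 was at 66.5 FPKM in LacZ 1 and between 51.4 and 52.5 FPKM in the other LacZ libraries. Irf3 was at 52.8 FPKM in LacZ 1 and between 48.7 and 49.2 FPKM in the other LacZ libraries. The transcript Ifnar1-202 was at 5.21 and 4.46 FPKM in HectD3 1 and HectD3 2, against 6.82 FPKM in LacZ 2 and between 1.74 and 2.29 FPKM in the other LacZ libraries.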

How the results depend on the processing

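The count of the 10 genes lower at an unadjusted p under 0.05 was 2 under most alternatives, 0 with the ordinary linear model and 1 among HectD3 1 to 3 against LacZ 3 and 4 (Irf7), and it ran between 1 and 3 when 1 library was left out: 1 without HectD3 3 (Irf7), and 3 without HectD3 4 or LacZ 4 (Irf1, Irf7 and Irf9). The share of all genes tested that was lower at that p was 4.28% in the main setting. It was 4.06% with the ordinary linear model and 4.31% among HectD3 1 to 3 against LacZ 3 and 4. Without HectD3 3, HectD3 4 or LacZ 4 it was 3.36%, 4.52% and 5.71%, in that order. No alternative gave a gene of the 10 that was higher at that p or past an adjusted p of 0.05. Genes with every HectD3 library below every LacZ library were 2 (Irf7 and Irf9) with TPM, median-ratio scaling or quantile normalization, 4 (also Irf1 and Irf2) among HectD3 1 to 3 against LacZ 3 and 4, and between 1 and 4 with 1 library left out. Genes above were 0 to 1 with 1 library left out (Ifngr1 without HectD3 3 or LacZ 4). The groups of Ifngr1 overlapped only through these libraries, so leaving out either separates them by construction. Likewise, the groups of Irf1, Irf2 and Irf7 overlapped only through HectD3 4, so every comparison without HectD3 4 separates them by construction. Smaller groups also separate more easily. The shares of all genes without overlap are given for the main setting only, so these counts cannot be set against them. Irf7 kept its direction in 23 of 23 alternatives, with log2 differences between -0.57 and -0.31, and an unadjusted p under 0.05 in 22 of them; Irf9 kept it in 23, between -0.33 and -0.19, with such a p in 20. Irf1, Irf2, Irf3, Ifngr1 and Ifngr2 also kept theirs.

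Differences near 0 changed sign. Ifnar1 was at 0.016 with median-ratio scaling, 0.014 with quantile normalization, 0.077 with library weights, 0.13 with the ordinary linear model, 0.089 among HectD3 1 to 3 against LacZ 3 and 4, 0.10 with the principal component, and between -0.084 and 0.065 with 1 library left out. Ifnar2 was at 0.0076 with library weights and 0.064 among HectD3 1 to 3 against LacZ 3 and 4. Ptpn2 was at 0.018 with median-ratio scaling and with quantile normalization, and between -0.052 and 0.031 with 1 library left out. Hectd3 stayed at a log2 difference of 5.86 with the ordinary linear model, with an adjusted p of 0.241. The cause of these changes was not tested.

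Deviations of same-numbered libraries correlated at -0.37, -0.0089, 0.34 and -0.61, and 0 of 4 HectD3 libraries correlated best with its own number. The separation of the libraries on the first principal component enters these correlations, so they cannot exclude a pairing by replicate number. With the number as a block the counts stayed at 2 lower and 0 higher. Depth is unknown, and with 4 libraries against 4 differences of the size seen in these genes were not called after adjustment.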
